A study of Mus musculus with 8 samples.

Results

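A set of 10 genes of bone morphogenetic protein (BMP) signalling were followed across sorted basal keratinocytes of resting mouse back skin: the secreted antagonists Grem1, Fst and Fstl1, the ligands Bmp2 and Bmp4, the receptor Bmpr1a and the 4 Id genes Id1, Id2, Id3 and Id4. They were taken by the gene symbol of the array platform, which gave 12 of 25697 probes for 10 of 16593 genes, with 2 probes each for Bmpr1a and Id2 and a single probe for each other gene. All mice were adults in telogen, the resting phase of the hair cycle, on an outcrossed Swiss Webster background, and all carried 1 eGFP reporter allele at Gli1 (Gli1-eGFP/+), a hedgehog-induced transcription factor. Live single cells with α6 integrin on their surface, the mark of basal keratinocytes, were sorted into 3 groups. The Gli1+ group (2 arrays) held cells positive for GFP, the CD34+ group (3 arrays) held cells lacking GFP but carrying CD34, a surface marker of the bulge, and the IFE group (3 arrays) held cells lacking both. The Gli1+ gate did not use CD34, and the IFE group, named for the interfollicular epidermis, also takes in cells of the follicle infundibulum. Each array held RNA of cells from 2 pooled mice, and the Gli1+ sample of replicate 1 was lost to poor RNA.

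BMP ligands bind pairs of type I and type II receptor kinases, which phosphorylate Smad transcription factors, and the Id genes are among the direct targets of these Smads. Id proteins hold a helix-loop-helix but no DNA-binding part, so they tie up the E proteins and keep them from DNA. Secreted antagonists bind the ligands outside the cell. In the hair follicle, BMP signalling is known to hold bulge stem cells at rest in telogen, and antagonists released around the hair germ are known to ease that hold when growth begins.

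The arrays gave between 9925 and 12601 detected probes, where detected means a detection p under 0.05 against the negative control beads. The lowest was Gli1+ replicate 3, and the Gli1+ arrays correlated at 0.82 across genes, less than Gli1+ replicate 2 correlated with any CD34+ or IFE array (0.87 to 0.89). As a check of the sort, Gli1 RNA was at 8.81 and 8.34 on the Gli1+ arrays and 5.00 to 5.32 on the IFE arrays (log2 difference 3.45 ± 0.42 SE, limma adjusted p = 0.00733). The CD34+ arrays, sorted as lacking GFP, held 7.04, 8.40 and 7.33, so that Gli1 RNA overlapped between Gli1+ and CD34+ cells (0.98 ± 0.42, adjusted p = 0.257). Gli1 RNA was also higher in CD34+ than in IFE cells (2.46 ± 0.37, adjusted p = 0.00483). Cd34 RNA was higher in CD34+ than in IFE cells (2.92 ± 0.31, adjusted p = 0.000782) and also in Gli1+ than in IFE cells (2.59 ± 0.35, adjusted p = 0.00822). Itga6, the α6 integrin gene of the sort, was detected on all 8 arrays. All 6 basal keratinocyte markers were detected on every array, with Krt5 levels between 12.14 and 12.87. Levels here are log2 intensities after background correction and quantile normalisation, and a level near 5.08 to 5.61, depending on the array, was the lowest that counted as detected. Beads of 1 probe on 1 array gave an SE of 4.62% to 10.6% of the intensity.

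Of the 10 genes, 9 were tested, each detected on at least 7 of the 8 arrays. The 2 antagonists Grem1 and Fstl1 were higher in both CD34+ and Gli1+ cells than in IFE cells, and Id1 and Id2 were higher in CD34+ cells. Id3 and Bmpr1a showed no called difference, and Bmp4 pointed the other way, with its highest level in IFE cells. Bmp2 was detected on no array (levels of 4.45 to 4.75), so no fold is given for it.

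**Figure D1:**
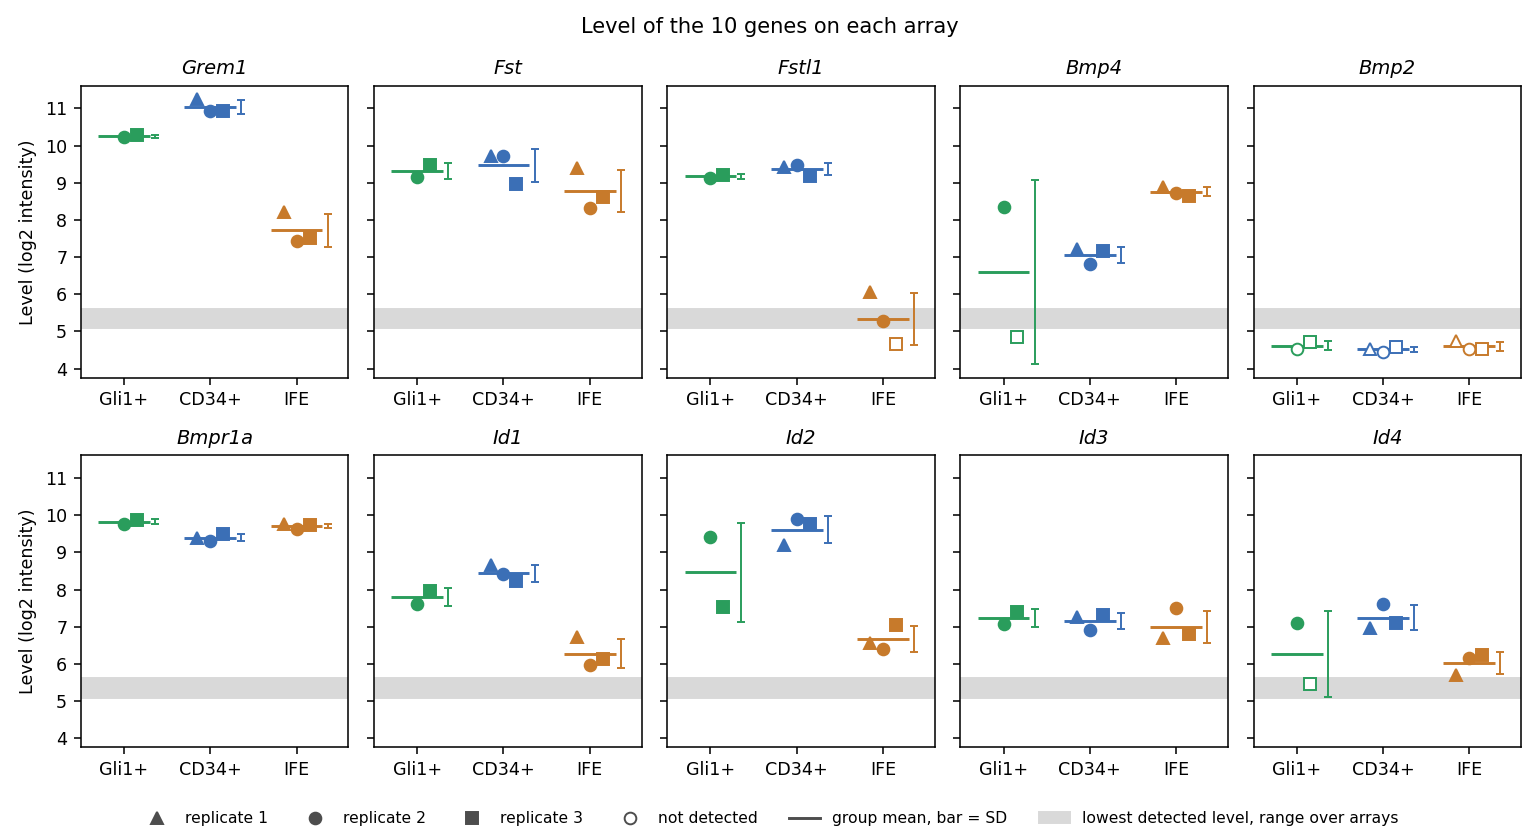
Level (log2 intensity) of each of the 10 genes on every array, by sorted group; horizontal lines are group means, bars are SD, open symbols were not detected, and the grey band spans the lowest detected level of the 8 arrays. Grem1, Fstl1, Id1 and Id2 lie lower on every IFE array than on all arrays of the other groups, and Bmp4 lies higher. Bmp2 lies below the band throughout, and the Gli1+ pair is wide apart for Bmp4, Id2 and Id4.

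The start regions of Grem1, Fstl1 and Id2, all called higher in CD34+ than in IFE cells, and of 2 Id genes with no called difference, are shown. They let the letters be set beside the levels. RefSeq promoter sequences (GRCm38.p6) were matched for 7 of the 10 genes by symbol, namely Grem1, Fstl1, Id2, Id3, Id4, Bmpr1a and Bmp4, and the 250 bases before the annotated start were searched on both strands. The first motif was GGCGCC, a GC-rich Smad element known from BMP response elements. Another was CAGGTG, which reads CACCTG on the opposite strand and is an E-box form bound by E proteins. The last was the site bound by Gli factors, TGGGTGGTC, which reads GACCACCCA on the opposite strand. No window held more than 1 motif, and capitals in the lines mark GGCGCC. The lines give, 5′ to 3′, Grem1 (chr2:113758649-113758898, minus strand), Fstl1 (chr16:37776805-37777054, plus strand), Id2 (chr12:25096093-25096342, minus strand), Id3 (chr4:136143572-136143821, plus strand) and Id4 (chr13:48260866-48261115, plus strand).
Grem1: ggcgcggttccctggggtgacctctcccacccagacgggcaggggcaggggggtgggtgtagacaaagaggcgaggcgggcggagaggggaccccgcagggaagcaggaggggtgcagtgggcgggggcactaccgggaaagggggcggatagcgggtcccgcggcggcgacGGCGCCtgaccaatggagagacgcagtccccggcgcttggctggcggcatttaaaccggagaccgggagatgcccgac
Fstl1: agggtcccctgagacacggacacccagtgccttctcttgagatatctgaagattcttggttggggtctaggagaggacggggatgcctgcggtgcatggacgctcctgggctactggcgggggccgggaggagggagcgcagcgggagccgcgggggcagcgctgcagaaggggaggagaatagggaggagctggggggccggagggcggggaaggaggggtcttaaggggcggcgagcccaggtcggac
Id2: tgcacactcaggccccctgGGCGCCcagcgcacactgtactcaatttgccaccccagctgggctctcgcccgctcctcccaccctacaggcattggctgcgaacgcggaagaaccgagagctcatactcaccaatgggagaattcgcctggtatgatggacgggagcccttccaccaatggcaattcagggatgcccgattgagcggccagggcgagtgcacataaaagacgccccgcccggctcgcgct
Id3: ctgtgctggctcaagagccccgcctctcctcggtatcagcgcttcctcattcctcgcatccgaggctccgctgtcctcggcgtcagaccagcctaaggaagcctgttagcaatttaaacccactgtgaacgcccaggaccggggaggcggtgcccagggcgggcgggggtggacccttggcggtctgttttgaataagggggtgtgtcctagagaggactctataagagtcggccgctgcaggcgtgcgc
Id4: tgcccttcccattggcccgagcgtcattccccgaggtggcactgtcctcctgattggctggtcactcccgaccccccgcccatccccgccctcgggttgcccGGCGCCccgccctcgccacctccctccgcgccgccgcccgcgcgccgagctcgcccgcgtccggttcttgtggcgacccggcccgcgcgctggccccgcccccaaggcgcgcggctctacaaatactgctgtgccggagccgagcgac
GGCGCC began 78 bases before the start in Grem1, 231 in Id2 and 148 in Id4, and was also present 198 bases before the start of Bmpr1a. These were 4 of 7 windows, against 9.59% of all 32851 promoters of the table. The 7 windows were also richer in G and C (62.8% to 78.8%) than the median promoter (52.4%), so the counts are a description of letters only. CAGGTG was found in Bmp4 alone (17.2% of all promoters) and TGGGTGGTC in none (0.225% of all promoters). Of the genes called in a comparison, Grem1 and Id2 had GGCGCC in this window and Fstl1 did not, and of those not called, Id4 and Bmpr1a had it and Id3 and Bmp4 did not.

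Grem1 encodes gremlin 1, a secreted protein that binds BMP2 and BMP4 and keeps them from their receptors. Its level was 11.25, 10.94 and 10.94 on the CD34+ arrays of replicates 1 to 3, 10.22 (replicate 2) and 10.27 (replicate 3) in Gli1+ cells, and 8.23, 7.43 and 7.51 on the IFE arrays. The 3 groups did not overlap, with CD34+ highest, Gli1+ next and IFE lowest. Grem1 was 9.98-fold higher in CD34+ than in IFE cells (log2 difference 3.32 ± 0.30 SE, limma adjusted p = 0.000312), rank 33 from the top of 9545 genes by size. It was 5.76-fold higher in Gli1+ than in IFE cells (2.53 ± 0.33, adjusted p = 0.00736). Within the pools of mice, CD34+ lay above IFE by 3.03, 3.51 and 3.42 and Gli1+ above IFE by 2.80 and 2.76. Between Gli1+ and CD34+ the difference was -0.79 (95% interval -1.53 to -0.05, adjusted p = 0.251), negative in both shared pools at -0.72 and -0.66.

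Fstl1 encodes a secreted glycoprotein with a follistatin-like domain that is known to bind BMP4 in mouse lung. Its level was 9.44, 9.49 and 9.18 on the CD34+ arrays, 9.13 and 9.21 on the Gli1+ arrays, and 6.07, 5.28 and 4.65 on the IFE arrays. The IFE values lay close to the lowest detectable level and 1 of the 3 was not detected, which leaves the size of the folds uncertain. Fstl1 was 16.4-fold higher in CD34+ than in IFE cells (4.04 ± 0.36, adjusted p = 0.000312), rank 10 of 9545, and 14.3-fold higher in Gli1+ than in IFE cells (3.84 ± 0.40, adjusted p = 0.00555), rank 6. Both were smaller without background correction (log2 differences of 2.52 and 2.35) and on the deposited log2 values (2.62 and 2.49), and both still passed. Unlike Grem1, its Gli1+ and CD34+ arrays overlapped, and they differed by -0.20 (95% interval -1.10 to 0.70, adjusted p = 0.835).

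Fst encodes follistatin, which binds activins tightly and some BMPs more weakly. Its level was 9.73, 9.72 and 8.95 in CD34+, 9.17 and 9.48 in Gli1+, and 9.40, 8.32 and 8.62 in IFE cells, and the groups overlapped in every comparison. The difference was 0.69 between CD34+ and IFE cells (95% interval -0.11 to 1.49, adjusted p = 0.377) and 0.54 between Gli1+ and IFE cells (-0.35 to 1.44, adjusted p = 0.53). Within the pools of replicates 1 to 3, CD34+ lay above IFE by 0.34, 1.40 and 0.33. Gli1+ lay above IFE by 0.85 and 0.86 in the pools of replicates 2 and 3. The intervals leave room for an increase of over 2-fold, but lie below the differences of Grem1 and Fstl1 in the same comparisons.

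Some markers of fibroblasts and dermal papilla cells, which are also known to make BMP antagonists and which the α6 integrin gate is meant to leave out, moved with the CD34+ group. Of 11 fibroblast and dermal papilla markers on the array, 3 were tested, and all 3 were higher in CD34+ than in IFE cells, where 2.94% of all genes were: Col1a2 (2.82 ± 0.55), Col6a1 (2.96 ± 0.29) and Sparc (2.20 ± 0.35). The markers Col3a1, Lum, Pdgfra, Crabp1 and Vcan were detected on no array. The summed intensity of the 11 markers was 1581 to 1927 on CD34+ arrays, 703 to 797 on Gli1+ arrays and 404 to 613 on IFE arrays. Only 3 to 4 of the 11 were detected on a CD34+ or Gli1+ array and 1 to 2 on an IFE array. Sparc was the brightest of them on every array, with levels of 9.97 to 10.32 on the CD34+ arrays, so the sums do not stand for all 11 markers. In Gli1+ against IFE cells none of the 3 passed (0.98 to 1.00 for the collagens and 0.21 for Sparc). Col6a1 was nonetheless detected on both Gli1+ arrays and on no IFE array, without overlap. Col1a2 had levels of 7.21 on Gli1+ replicate 2 and 4.64 on replicate 3, and Dcn and Vim were detected on Gli1+ replicate 3 alone. In Gli1+ against CD34+ cells, Col6a1 (-1.98 ± 0.33, adjusted p = 0.0283) and Sparc (-1.99 ± 0.39, adjusted p = 0.0448) were called lower. There 1.41% of all genes were called in either direction. Col1a2 differed by -1.82 ± 0.62 without passing (adjusted p = 0.172). The part of fibroblasts and dermal papilla cells in the levels of Grem1 and Fstl1 was not tested. In bulk RNA of sorted cells, more cells that express a gene and more RNA per cell cannot be told apart.

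Bmp4 encodes a ligand that gremlin 1 binds. Its level was 8.88, 8.73 and 8.65 on the IFE arrays and 7.21, 6.82 and 7.16 on the CD34+ arrays, without overlap. On the Gli1+ arrays it was 8.35 in replicate 2 and 4.84, not detected, in replicate 3. The CD34+ level lay below the IFE level by 1.67, 1.91 and 1.49 within the 3 pools, which differ little. Even so, the shared fit gave -1.69 ± 0.69 (95% interval -3.24 to -0.14) with adjusted p = 0.246, since its spread includes the gap of 3.51 between the Gli1+ arrays. Fitted on the CD34+ and IFE arrays alone, the same difference had adjusted p = 0.0024. Between Gli1+ and IFE cells the difference was -2.16 (-3.89 to -0.43, adjusted p = 0.179), with -0.38 in the pool of replicate 2. In the pool of replicate 3, where Bmp4 was not detected in Gli1+ cells, it was at least 8.22-fold lower than in IFE cells, counted against the lowest detected level of that array. Without Gli1+ replicate 2, Bmp4 was at least 8.82-fold lower than the IFE mean (adjusted p = 0.000978), and without Gli1+ replicate 3 it differed by -0.41 (adjusted p = 0.576). Against CD34+ cells the Gli1+ level differed by -0.47 (-2.20 to 1.26), and the sign turned with the array left out: at least 2.73-fold lower without replicate 2, and a log2 difference of 1.28 (adjusted p = 0.0797) without replicate 3.

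Bmpr1a encodes a type I BMP receptor, needed for follicle differentiation in mouse skin. On its brighter probe the level was 9.39, 9.31 and 9.50 in CD34+, 9.77 and 9.87 in Gli1+, and 9.75, 9.64 and 9.75 in IFE cells. The CD34+ arrays were the lowest of the 8, but by a small step that did not pass: CD34+ lay below IFE by -0.31 (95% interval -0.86 to 0.23, adjusted p = 0.601). Gli1+ differed from IFE by 0.11 (-0.50 to 0.72) and from CD34+ by 0.42 (-0.18 to 1.03). The other probe gave -0.09, -0.10 and -0.01 for the 3 comparisons, with overlapping groups in each.

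The Id genes split. Id1 and Id2 were higher in CD34+ than in IFE cells, Id4 pointed the same way without passing, and Id3 did not differ detectably. Id1 had levels of 8.67, 8.41 and 8.22 in CD34+, 7.62 and 7.97 in Gli1+, and 6.71, 5.98 and 6.12 in IFE cells. The groups did not overlap and followed the order of Grem1. Id1 was 4.48-fold higher in CD34+ than in IFE cells (2.16 ± 0.30, adjusted p = 0.00316) and 2.88-fold higher in Gli1+ than in IFE cells (1.52 ± 0.33, adjusted p = 0.0487). The call in Gli1+ cells is marginal: it was lost in 11 of 19 alternatives, with adjusted p = 0.0739 when the pool of mice was a block. Without background correction the log2 differences of Id1 were 1.35 in CD34+ and 0.87 in Gli1+ cells, and on the deposited log2 values 1.48 and 1.02.

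Id2, the Id gene with the largest difference, had 2 probes. The brighter gave levels of 9.20, 9.89 and 9.75 in CD34+, 9.40 and 7.53 in Gli1+, and 6.57, 6.39 and 7.05 in IFE cells. The dimmer gave 9.52, 9.30 and 8.56 in CD34+, 8.30 and 6.31 in Gli1+, and 7.22, 5.17 and 6.24 in IFE cells. On both probes the CD34+ arrays lay above all IFE arrays and Gli1+ replicate 2 lay far above Gli1+ replicate 3. Id2 was 7.69-fold higher in CD34+ than in IFE cells on the brighter probe (2.94 ± 0.46, adjusted p = 0.00572), and the dimmer differed by 2.91 ± 0.60 (adjusted p = 0.0253 over all probes). The brighter probe gave 2.15 without background correction and 2.28 on the deposited log2 values. Between Gli1+ and IFE cells the brighter probe gave 1.79 ± 0.51 (adjusted p = 0.105), with 3.02 in the pool of replicate 2 and 0.48 in that of replicate 3. Without Gli1+ replicate 3 the difference was 2.73 (adjusted p = 0.0121), and without Gli1+ replicate 2 it was 0.85 (adjusted p = 0.205).

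Id4 had levels of 6.98, 7.61 and 7.11 in CD34+, 7.09 and 5.44 in Gli1+, the latter not detected, and 5.69, 6.15 and 6.23 in IFE cells. CD34+ and IFE arrays did not overlap, and the difference was 1.21 ± 0.42 (95% interval 0.28 to 2.15, adjusted p = 0.157). As for Bmp4, a fit on the CD34+ and IFE arrays alone passed (adjusted p = 0.0261). Id3 had levels of 7.25, 6.92 and 7.31 in CD34+, 7.07 and 7.40 in Gli1+, and 6.69, 7.50 and 6.80 in IFE cells, overlapping throughout. Its difference was 0.17 between CD34+ and IFE cells (-0.52 to 0.85) and 0.24 between Gli1+ and IFE cells (-0.52 to 1.00). These intervals end below the estimates for Id1 and Id2 against IFE cells, although the difference between Id genes was not tested.

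**Figure D2:**
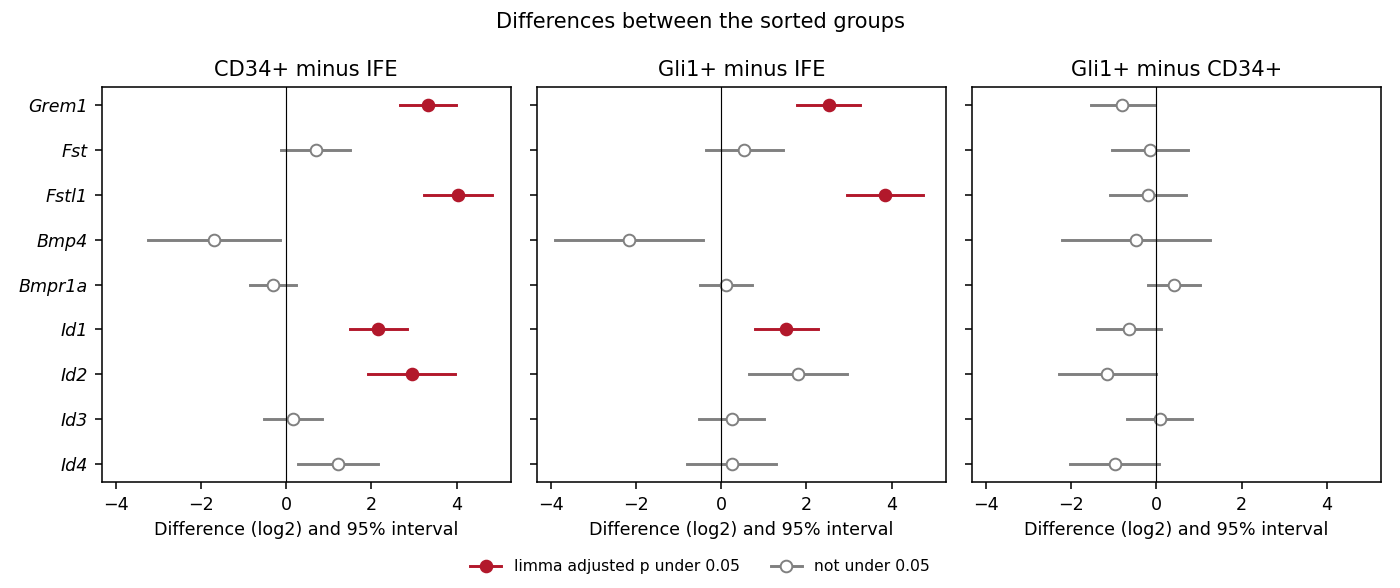
Log2 difference (points) and 95% interval (bars) of the 9 tested genes in the 3 comparisons; filled red points have a limma adjusted p under 0.05. Grem1 and Fstl1 are past the threshold in both comparisons with IFE cells, and none of the 9 in Gli1+ against CD34+ cells.

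In CD34+ against IFE cells, 4 of the 9 tested genes were called higher (Grem1, Fstl1, Id1 and Id2) and none lower, where 2.94% of all 9545 genes were called higher and 1.85% lower (4.8% in either direction). Fitted probe by probe, 5 of their 11 kept probes passed, both Id2 probes among them, where 4.09% of all 14252 kept probes did. The groups did not overlap for 7 of the 9, against 27.7% of all genes. Among the 7, Bmp4 and Bmpr1a were lower in CD34+ cells, and the dimmer Bmpr1a probe overlapped. The median difference of the 9 was 1.21, against -0.01 for all genes tested. In Gli1+ against IFE cells, 3 of 9 were higher (Grem1, Fstl1 and Id1), and none lower, where 1.29% of all genes were called higher and 0.859% lower (2.15% in either direction). Of the 11 kept probes, those of Grem1 and Fstl1 passed, against 1.7% of all kept probes, and the probe of Id1 had adjusted p = 0.0543 there. The groups did not overlap for 6 of 9, against 31.6% of all genes. Among the 6, Bmp4 was lower in Gli1+ cells, and the dimmer probes of Bmpr1a and Id2 overlapped. The brighter Bmpr1a probe was apart by a narrow step, with 9.77 on Gli1+ replicate 2 and 9.75 on IFE replicate 1. The median was 0.54, against -0.05. A fit on the Gli1+ and IFE arrays alone called none of the 9 and 6 of all genes, with adjusted p = 0.0573 for both Grem1 and Fstl1. Both comparisons share the IFE arrays.

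Gli1+ cells were set against CD34+ cells to see which genes differ between cells sorted for GFP and CD34+ cells sorted without it. Since Gli1 RNA overlapped between these groups, the comparison does not set hedgehog-responding cells against cells without a response. None of the 9 genes passed by limma, where 1.41% of all genes did, and none of the 11 probes, where 0.919% of all kept probes did. At an unadjusted p under 0.05, 2 of 9 passed (Grem1 and Id2), against 17.5% of all genes. The groups did not overlap for Grem1, Id1 and, on its brighter probe only, Bmpr1a, which were 3 of 9, against 31.4% of all genes. The median difference was -0.47, against -0.05 for all genes. Id2 differed by -1.15 (95% interval -2.29 to -0.003), Id1 by -0.64 (-1.38 to 0.10), Id4 by -0.97 (-2.01 to 0.08), Id3 by 0.08 (-0.69 to 0.84) and Fst by -0.15 (-1.04 to 0.75). A missed threshold with intervals this wide does not show that the groups were alike. With Gli1+ replicate 3 as the lone Gli1+ array, Bmp4 was at least 2.73-fold and Id4 at least 3.08-fold lower than in CD34+ cells, both undetected on that array. Id2 then had a log2 difference of -2.09. With replicate 2 as the lone Gli1+ array, Id2 differed by -0.21, Id4 by -0.15 and Bmp4 by 1.28.

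On the brightest probe of each gene, the Gli1+ arrays were closest for Grem1, Fstl1 and Bmpr1a and widest for Bmp4, Id2 and Id4. Replicate 2 lay above replicate 3 by 3.51 for Bmp4, by 1.88 for Id2 and by 1.64 for Id4. Since Bmp4 and Id4 were not detected on replicate 3, their gaps are at least 2.74 and 1.47 when counted from its lowest detected level. The other 6 genes differed by 0.05 to 0.35 in size on these probes, all with replicate 3 the higher. The dimmer Bmpr1a probe went the other way, with levels of 8.27 on replicate 2 and 7.38 on replicate 3. The median absolute gap over all genes was 0.63, and 51 of 9545 genes had a larger measured gap than Bmp4. Grem1 had one of the smaller gaps, with 95.2% of genes farther apart. Results for Bmp4, Id2 and Id4 in Gli1+ cells therefore rest on which array is used.

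**Figure D3:**
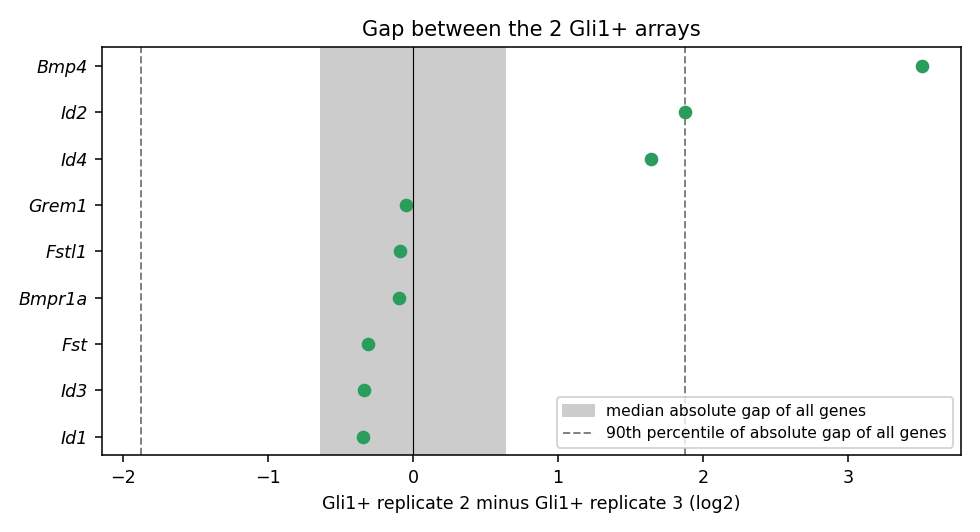
Difference in level (log2) between Gli1+ replicates 2 and 3 for the 9 tested genes, each on its brightest probe. The grey band is the median absolute gap of all 9545 genes (0.63) and the dashed lines the 90th percentile (1.88). Bmp4, Id2 and Id4 lie outside the band, with replicate 2 higher, and the other 6 lie inside it.

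The rest of the pathway was read in the same fit. A list of 50 further genes of 6 roles had 46 on the array and 28 tested. In CD34+ against IFE cells 3 were higher, 1 was lower and 24 did not pass, where 2.94% of all genes were higher and 1.85% lower. Of the 3, Nog met the detection filter through the CD34+ arrays alone. The median was 0.07, against -0.01 for all genes. In Gli1+ against IFE cells 1 was higher and 27 did not pass, where 1.29% of all genes were higher (median -0.10, against -0.05). In Gli1+ against CD34+ cells none of the 28 passed by limma, where 1.41% of all genes did (median -0.34, against -0.05).

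Of 12 further secreted antagonists listed, 10 were on the array and 4 were tested. Nog and Nbl1 were higher in CD34+ than in IFE cells and Sostdc1 and Twsg1 did not pass. Nog encodes noggin, a BMP antagonist of skin and hair follicles, and had levels of 6.40, 6.30 and 5.98 on the CD34+ arrays. It was not detected on any Gli1+ or IFE array, so its increase over IFE is given as at least 1.94-fold, against the lowest detected level of each array (1.55 ± 0.26, adjusted p = 0.00835). Nog thus met the detection filter through the CD34+ arrays alone, the group where it was called higher, and the filter favoured that call. Without background correction the difference was 0.67 (adjusted p = 0.0296). Nbl1, a secreted antagonist of the same family as gremlin, was 3.32-fold higher (1.73 ± 0.28, adjusted p = 0.0067), with levels of 8.81 to 9.15 in CD34+ and 7.09 to 7.50 in IFE cells. In Gli1+ against IFE cells the largest differences of this list were Twsg1, a modulator of BMP and chordin (-1.66 ± 0.41, adjusted p = 0.0691), and Nbl1 (1.06 ± 0.31, adjusted p = 0.114). Each passed when 1 array was left out: Twsg1 was at -2.17 (adjusted p = 0.0238) without Gli1+ replicate 3 and Nbl1 at 1.33 (0.0366) without Gli1+ replicate 2. In Gli1+ against CD34+ cells Twsg1 differed by -1.34, and Nog was at least 1.70-fold lower (adjusted p = 0.0676), which passed in 2 of 19 alternatives, among them that without Gli1+ replicate 2 (0.0404).

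Of 3 tested further targets, Dlx3, a homeobox gene of hair differentiation, was higher and Gata3, a transcription factor of the inner root sheath and epidermis, was lower in CD34+ than in IFE cells. Dlx3 was 5.94-fold higher in CD34+ (2.57 ± 0.28, adjusted p = 0.00087) and 3.95-fold higher in Gli1+ than in IFE cells (1.98 ± 0.31, adjusted p = 0.0162). The call in Gli1+ cells was lost in 6 of 19 alternatives, with adjusted p = 0.057 with the pool of mice as a block, 0.0754 on those 2 groups alone, 0.113 with array weights and 0.0581 to 0.0738 without any 1 IFE array. Without background correction Dlx3 differed by 1.57 in CD34+ and 1.13 in Gli1+ cells. Gata3 differed by -1.62 ± 0.31 in CD34+ cells (adjusted p = 0.0173), and missed the threshold in 6 of 19 alternatives, up to 0.094 on the deposited log2 values, where it differed by -0.69. Hey1, the third, differed by 0.98 and did not pass.

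No tested ligand, receptor, Smad or E protein passed in any of the 3 comparisons in the fit of all arrays. Of 4 tested ligands and activins, Bmp7 had the largest difference in CD34+ (-0.37) and in Gli1+ cells (-0.76) against IFE, but it was detected on only 1 CD34+ and 1 IFE array. Of 9 receptors and co-receptors, all tested, the co-receptor Rgmb differed most (-1.04 in CD34+ and -1.34 in Gli1+ cells, adjusted p = 0.176 and 0.134). The CD34+ difference passed in 4 of 19 alternatives, among them the CD34+ and IFE arrays alone (adjusted p = 0.0275). In Gli1+ cells Rgmb was at -2.08 (0.014) without Gli1+ replicate 3 and -0.60 (0.289) without replicate 2, where the receptor gene Acvrl1 was at 2.30 (0.00845), against -0.07 (0.951) without replicate 3. Of 6 Smads and intracellular regulators, Smad1, which carries the BMP signal, was level (10.14 to 10.30 in CD34+, 10.15 and 10.41 in Gli1+, 9.99 to 10.32 in IFE cells), and the ubiquitin ligase gene Smurf2 had the largest difference of this list in Gli1+ cells, -1.38 against IFE cells (adjusted p = 0.216). It was -2.24 (0.0203) without Gli1+ replicate 2 and -0.51 (0.641) without Gli1+ replicate 3. Tcf12, an E protein gene whose product Id proteins bind, differed by 1.04 in CD34+ (adjusted p = 0.0619) and 1.08 in Gli1+ cells (0.0993) against IFE. The Tcf12 difference passed in 9 of 19 alternatives in CD34+ cells, among them the one with no background correction (adjusted p = 0.0135).

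**Figure D4:**
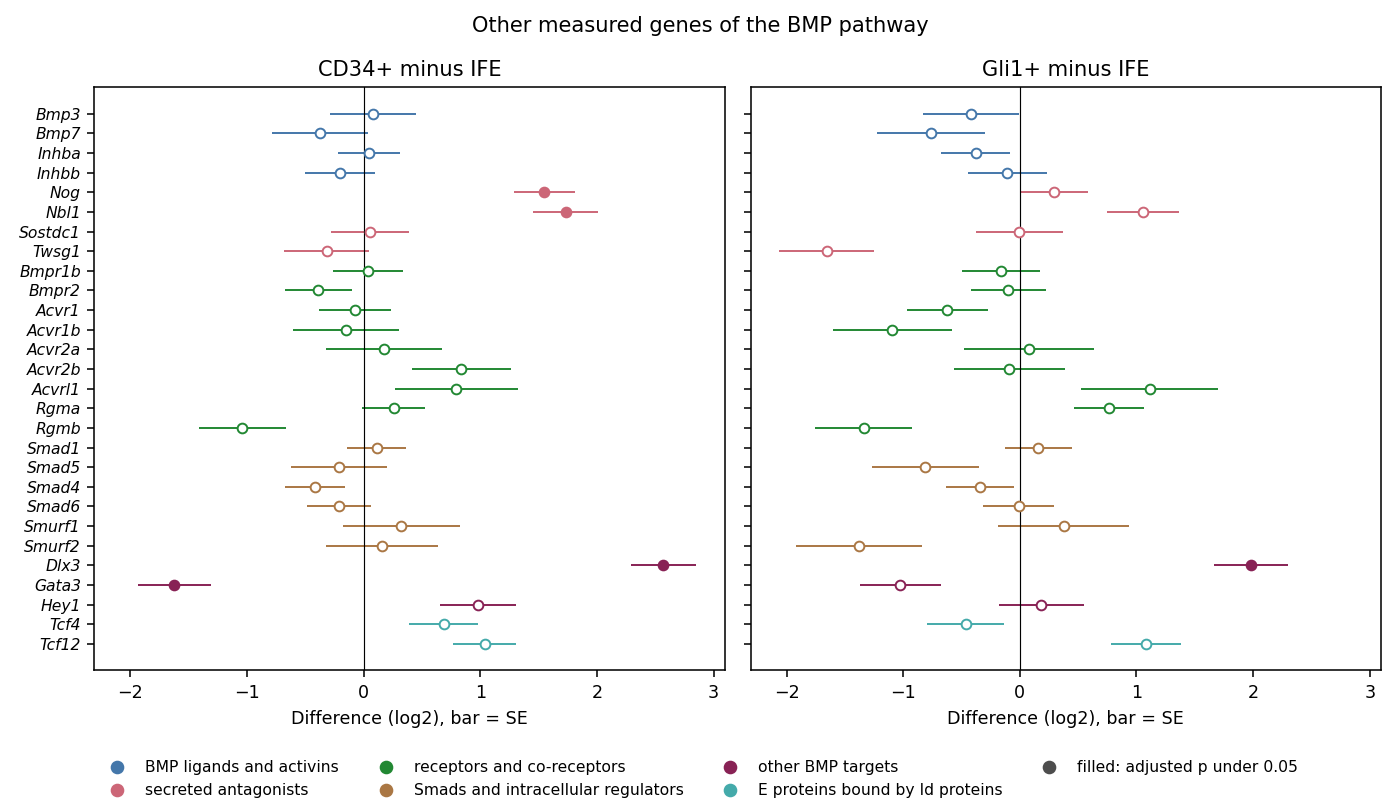
Log2 difference (points) and SE (bars) of the 28 tested further pathway genes, coloured by role, in CD34+ against IFE and Gli1+ against IFE cells; filled points have a limma adjusted p under 0.05. Nog, Nbl1, Dlx3 and Gata3 are filled in CD34+ against IFE cells and Dlx3 alone in Gli1+ against IFE cells.

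For each gene called in a comparison, the 3 genes of most similar pattern were found as those with the smallest root mean square difference between log2 profiles, each centred on its mean over the 8 arrays. For Grem1 they were Ccn2 (0.18), Fbln1 (0.26) and Tgm5 (0.28), where the median over the other 9544 genes was 1.58. For Fstl1 they were Apbb1 (0.40), Timp2 (0.44) and again Fbln1 (0.49), with a median of 2.02. For Id1 they were Slc39a13, Sox9 and Wwp2 (all 0.27, median 1.10), Sox9 being a transcription factor of bulge cells. For Id2 they were Clec3b (0.29), Hoxc13 (0.31) and Hexa (0.34, median 1.47), which share with it a lower level in Gli1+ replicate 3 than in replicate 2. Among the 9 genes themselves, Grem1 lay nearest to Id1 (0.54) and Fstl1 (0.56), and Bmpr1a lay nearest to Id3 (0.34), which also changed little.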

How the data were processed

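RNA of 8 samples was hybridised to Illumina mouse bead arrays, 1 per sample, after NuGEN Ovation Pico labelling per the labels' protocols. The authors deposited a matrix of mean bead intensity per probe, with the standard error as a signal over beads, the bead count and a detection p-value, per the file headers. It was neither background-corrected nor normalised, and was exported with GenomeStudio 2010.3 per the submitters' processing notes. The deposited table of log2 values equalled the log2 intensity within 5.5e-05 and served as an alternative. No genome build is given in the sources used here for the arrays.

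Intensities were background-corrected and quantile normalised with neqc (offset 16) in limma 3.58.1 under R 4.3.3. Of 25697 probes, 23978 carried 1 symbol, 1719 none, and 23962 matched an Entrez entry. Only probes detected (p under 0.05) on 2 or more arrays entered the fit (14252), and for each of 9545 genes the brightest was used. All arrays were fitted together in a linear model with lmFit, moderated by eBayes with 5 residual degrees of freedom and 4.87 prior ones, two-sided, with Benjamini-Hochberg adjustment over all genes within a comparison and a threshold of 0.05. All kept probes were fitted separately in the same way. The fit was tested on simulated data. Arrays give no counts, so their number limits the precision.

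The 10 genes, the pathway and marker lists and the tests were chosen with earlier results of these data known. Named genes are the 10, the sort genes, up to 4 genes past the threshold per pathway list and comparison (where none did, up to 2 are given as values), and the 3 most similar patterns; other markers are named beside the results they move with. Equal replicate numbers mark the same pool of mice, per the series' design text. The correlation of deviations from group means between samples of one number was -0.03 to 0.09, and the pool was a block in an alternative. The pools are separate sets of mice, but no slide or scan date was available to test as a batch.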

Additional observations from a re-analysis of the deposited data

How the results depend on the processing

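Each of the 9 tested genes was recomputed in 3 comparisons under 19 alternatives, and no called value changed sign. Grem1, Fstl1, Id1 and Id2 passed in CD34+ against IFE cells in all 19, and the number of the 9 called ranged from 4 to 6. For Gli1+ against IFE cells it ranged from 0 to 4, and for Gli1+ against CD34+ cells from 0 to 3. With 1 array left out, the counts were 4 to 6, 2 to 4 and 0 to 3 genes, and 4 to 7, 1 to 4 and 0 to 4 of the 11 kept probes. Over all genes they ranged from 197 to 832 in CD34+ against IFE cells (458 in the reported fit), from 39 to 1231 in Gli1+ against IFE cells (205) and from 1 to 1208 in Gli1+ against CD34+ cells (135). In both Gli1+ comparisons the highest of these counts came without Gli1+ replicate 2. There replicate 3 is a lone array assumed to vary like the other groups. In CD34+ against IFE cells the highest count was the same with Gli1+ replicate 2 or replicate 3 left out.

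Fitting only the 2 groups compared called 832, 6 and 1 genes in these comparisons, and array weights 891, 3 and 1. Both called 0 of the 9 genes and 0 probes in Gli1+ against IFE cells, where array weights gave Grem1 an adjusted p of 0.0708 and Fstl1 0.0535. No background correction called 209 genes in Gli1+ against CD34+ cells. The replicate block called 68 genes in Gli1+ against IFE and 1 in Gli1+ against CD34+ cells. Of the calls on the 10 genes and the pathway lists, it ended those of Id1 (0.0739) and Dlx3 (0.057) in Gli1+ against IFE cells and changed no other. Id1 in that comparison also missed without the detection filter (0.0569), without Gli1+ replicate 3 (0.094), and without any 1 CD34+ or IFE array (0.0736 to 0.152).

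Median centring moved the median of all genes from -0.01 to 0.13 in CD34+ against IFE cells and from -0.05 to 0.10 in Gli1+ against IFE cells. The calls there were 310 higher and 91 lower (281 and 177 in the reported fit) and 174 and 36 (123 and 82). The deposited log2 values gave 306 and 83, and 158 and 12. Cyclic loess gave 171 and 49 in Gli1+ against IFE cells. For Gli1+ against CD34+ cells, with 54 higher and 81 lower in the reported fit, cyclic loess gave 106 and 82, and the deposited values 54 and 50. Levels near the detection limit, as for Fstl1 in IFE cells, bound how well folds are known.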

Other observations

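Some cell type markers differed widely between the Gli1+ arrays beside Bmp4, Id2 and Id4. Dcn, a fibroblast proteoglycan, had a level of 7.73 on Gli1+ replicate 3 and 4.51 to 5.03 on the other 7 arrays, where it was not detected. Vim, the mesenchymal intermediate filament vimentin, had 6.36 on Gli1+ replicate 3 and was not detected elsewhere. Col1a2 went the other way, with 7.21 on Gli1+ replicate 2 and 4.64 on replicate 3. Ngfr, a neurotrophin receptor, had 5.94 on Gli1+ replicate 2 and 8.46 on replicate 3. Itgb4, a hemidesmosome integrin, had 9.92 and 8.62. These genes were named after their values were seen, and their part in the gap of Bmp4, Id2 and Id4 was not tested.

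Of the melanocyte markers, Mitf had levels of 7.93 to 8.52 in CD34+, 8.12 and 6.88 in Gli1+ and 5.05 to 5.27 in IFE cells, while Dct, Tyr and Tyrp1 were detected on no array. Pmel and Mlana, also tested, did not pass. They differed by -0.20 and -0.07 in CD34+ and by 0.03 and 0.23 in Gli1+ against IFE cells. Of 7 bulge markers, all tested, 4 were higher in CD34+ than in IFE cells (2.94% of all genes were) and 3 in Gli1+ than in IFE cells (1.29% of all genes). Both counts include Cd34, whose product was used to sort the CD34+ and IFE groups. The others were Lgr5 and Lhx2 in both comparisons, and Sox9 in CD34+ against IFE cells only. None of the tested suprabasal, Langerhans cell and macrophage, T cell, endothelial, Schwann cell, smooth muscle and sebaceous gland markers passed in any of the 3 comparisons. Of 4 Merkel cell markers, none was tested.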
